A study of Mus musculus with 21 samples.

Results

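The cells of pharyngeal arch 2 (PA2) collected by sorting for a neural crest reporter were compared with wild-type (WT) PA2 of the same embryonic day, E10.5, for which no sorting is stated. The comparison used 6 of the 21 RNA-seq libraries of the series, 3 of sorted crest and 3 of PA2 WT, chosen by their labels and joined gene by gene through the Entrez identifier. Sorted crest came from micro-dissected PA2 of Wnt1::Cre;ROSA RFP embryos. There Cre, under the promoter of Wnt1, a gene of the dorsal neural tube from which crest arises, switches on a red fluorescent protein that the crest lineage keeps. The PA2 WT libraries are the controls of a second set of 12 libraries, which also holds PA2 of HIRE1del embryos, lacking a distant Hoxa regulatory region, and PA3 of both genotypes. The other 6 sorted libraries are from the pinna, the outer ear, at E12.5 and E14.5. All mice were of a mixed C57Bl/6J;CD1 background, embryos of both sexes were pooled, and the dissected tissue was dissociated with trypsin at E10.5. The labels call the cells of all libraries cranial neural crest cells.

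Sorting is not the only thing that differs between the groups. Sorted crest was read from a single end of each fragment at 50 bases on one sequencer (HiSeq 2500), and PA2 WT from both ends on another (NovaSeq), in a separate set of libraries. Sorting, series, sequencer and read layout go together in every one of the 6 libraries and cannot be told apart. For that reason a change was called large only when the log2 fold change (sorted crest minus PA2 WT) reached 2 in size with an adjusted p under 0.05 (edgeR, quasi-likelihood). Genes with exons that overlap exons of a gene on the opposite strand are named as overlapped wherever they appear.

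At this stage a pharyngeal arch is a core of mesenchyme inside an epithelial sleeve. Neural crest cells supply most of the mesenchyme, which later forms bone, cartilage and connective tissue, while mesoderm supplies the muscle precursors and the endothelium of the arch artery. Surface ectoderm covers the outside, pharyngeal endoderm lines the inside, and primitive red cells circulate through the artery. The epithelia send signals such as SHH, FGF8 and EDN1 to the crest mesenchyme, which carries their receptors.

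The 3 sorted libraries held 29.2 to 30.2 M counts each and the 3 PA2 WT libraries 25.9 to 32.2 M. Of 24594 genes in both tables, 13609 reached 1 CPM (a gene's count scaled to 1000000 counts per library) in at least 2 of the 6 libraries and were tested. The 3 libraries of each group are described as independent biological replicates.

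The difference between the groups was wide and lopsided. Of the genes tested, 8070 (59.3%) passed the test, with 3775 (27.7%) higher and 4295 (31.6%) lower in sorted crest, but large changes were nearly all falls. There were 32 large rises (0.235%) against 1337 large falls (9.82%), while the median log2 fold change of all genes tested was -0.01. The number of rises depended on 2 libraries. It was 14 without sorted replicate 3 and 20 without PA2 WT replicate 1.

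**Figure D1:**
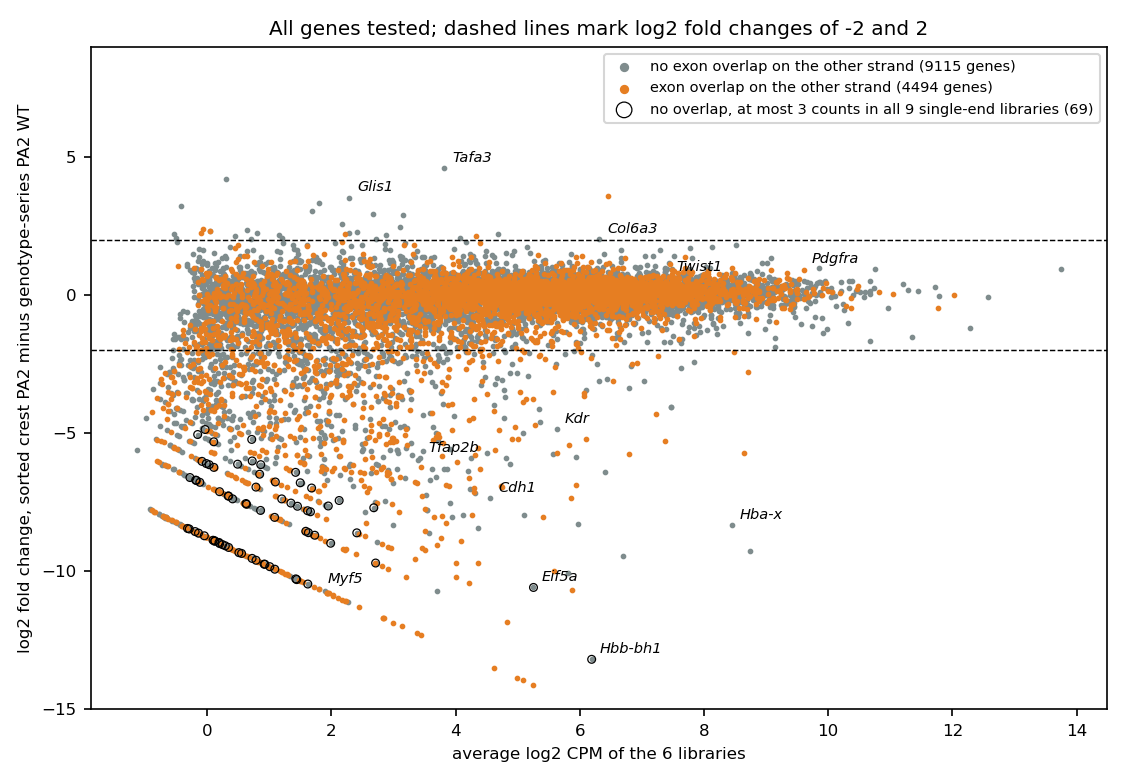
Log2 fold change (sorted crest minus PA2 WT, y axis) against average log2 CPM of the 6 libraries (x axis), each point being one of the 13609 genes tested. Orange marks genes with exons that overlap exons of a gene on the opposite strand. Circles mark genes without overlap that had at most 3 counts in all 9 single-end libraries. The 32 large rises lie above the upper dashed line and the 1337 large falls below the lower one, and the slanting rows at the lower left are genes with 0, 1 or a few counts in sorted crest.

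Part of the falls lay in genes on which the 2 sets of libraries behaved differently as a class. Among the 4494 overlapped genes 631 (14.04%) were large falls, against 706 (7.75%) of the 9115 genes without overlap. Of 205 genes annotated as antisense RNAs, 133 (64.9%) were large falls, with a median log2 fold change of -3.74. A further class showed up over all 21 libraries. A group of 174 tested genes had at most 3 counts in each of the 9 single-end libraries and at least 1 CPM in each of the 12 paired-end ones, and 69 of these had no overlap, while no gene showed the opposite pattern.

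Some of these near-empty genes are needed by every dividing cell, so that a count near 0 in sorted crest does not by itself show that a gene was off. Eif5a, an essential translation factor on chromosome 11 (mm10 chr11:69916714-69921958), had 0.0668, 0.0684 and 0 CPM in sorted crest and 78.6, 78.4 and 74.0 CPM in PA2 WT. Nup43, a subunit of the nuclear pore, had 0 counts in all 3 sorted libraries and 8.79, 3.53 and 4.10 CPM in PA2 WT. Neither is overlapped, and in both the groups lay far apart. Near-empty genes were also often close to one another, since 12 of 68 with a position (17.6%) had another within 200 kb, against 173 of 8625 (2.01%) of the other genes with at least 1 CPM in the 3 PA2 WT libraries. Nup43 lies within the span of Pcmt1 on the opposite strand, without shared exon bases, and next to Lats1. Eif5a lies beside Neurl4 and Slc2a4. The neighbours named here were chosen after their values were seen. What sets these genes apart was not tested, and below they are named as near empty.

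Genes outside the near-empty class were among the 15 largest falls too. Uqcrc1, a subunit of the respiratory chain that all cells use, had 0.0334, 0 and 0 CPM in sorted crest and 38.2, 21.2 and 19.8 CPM in PA2 WT, while a sorted pinna library reached 10.48 CPM. Cenps, which encodes a protein of the centromere, had 0 counts in sorted crest and 3.78, 6.32 and 2.14 CPM in PA2 WT. Gm15501, annotated as a transcribed processed pseudogene and therefore uncertain, had 0.134, 0.137 and 0.0331 CPM against 119, 115 and 107 CPM. All 3 are without overlap, and in each the groups stood apart.

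Of the 15 largest falls without overlap 4 belong to the list of erythroid genes and 6 are near empty. Red cells carry globins, a spectrin-based membrane skeleton and blood group proteins, under transcription factors such as GATA1 and KLF1. In bulk RNA fewer cells of a type and less RNA per cell cannot be told apart, here and in each group below. Of 30 erythroid genes 27 were tested, 25 fell and 21 were large falls, with a median log2 fold change of -6.71. Without overlapped genes 19 of 23 were large falls.

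The embryonic globins gave wide gaps. Hbb-y, an embryonic beta-like globin, had 0.468, 2.87 and 0.794 CPM in sorted crest and 605, 1035 and 940.3 CPM in PA2 WT. Its log2 fold change was -9.27 ± 0.40 (SE, n = 3 against 3; edgeR adjusted p 4.7e-08), and the groups did not overlap, as was so for 66.1% of all genes tested. Hba-x, the embryonic alpha-like globin, had 1.20, 3.83 and 1.39 CPM against 614, 865 and 624 CPM, a log2 fold change of -8.33 ± 0.31. In both genes sorted replicate 2 was the highest of the sorted libraries. Hbb-bh1 (chr7:103841637-103843164), the second embryonic beta-like globin, had a single count in the 3 sorted libraries and 77.7, 178 and 186 CPM in PA2 WT. That ratio is 13500-fold with a 95% counting interval of 2423 to 533240, and the gene is near empty in the sense above. Reads of the adult globin genes Hbb-bt, Hbb-b1 and Hba-a1, which have close copies in the genome, could be divided among the copies, and their values are uncertain.

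The red cell membrane genes followed. Epb42, which encodes the membrane skeleton protein band 4.2, had 0 counts in the 3 sorted libraries and 8.37, 10.9 and 9.56 CPM in PA2 WT. With a floor of 3 counts per library this is at least 95.6-fold lower. Slc4a1, the anion exchanger band 3, had 0.0668, 0.616 and 0.132 CPM against 55.5, 77.7 and 74.6 CPM. Kel, which encodes the Kell blood group protein, and Rhag, a Rh-associated membrane protein, had 0 counts in all sorted libraries, and both are near empty. Sorted crest lay below PA2 WT in every one of these genes.

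Among the regulators, Gata1 had 0 counts in sorted crest and 3.28, 5.15 and 3.66 CPM in PA2 WT, at least 40.0-fold lower. Klf1 had 0.468, 0.240 and 0.364 CPM against 4.78, 7.73 and 5.18 CPM, with all sorted libraries below all PA2 WT libraries. Tal1, which blood and endothelial precursors share, fell by 6.16 on the log2 scale. Some members that fell less are also used outside blood, and whether that bears on their smaller fall was not tested. Tfrc, the transferrin receptor, fell by 0.74 and Fech, the last enzyme of haem synthesis, by 0.40. Among the tested erythroid genes 1, overlapped, rose and 1 did not pass the test, and the highest log2 fold change was 0.43.

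The promoters of the erythroid members that fell far are shown for the letters they share, which the choice of the list did not use. RefSeq promoters (GRCm38.p6, from 250 bases before to 50 after the start) were matched for 15 of the 21 erythroid large falls. A GATA motif (GATA with A or T before it and A or G after it, on either strand) was in 13 of the 15 (86.7%), against 30.2% of all 27025 promoters and 17.9% of the 10676 promoters of genes tested. The same motif was in 3 of 17 epithelial large falls, 5 of 16 endothelial ones and 4 of 21 crest mesenchyme genes called higher. The CACCC motif of KLF1 (CACCC preceded by CC and a base other than T, on either strand) was in 2 of the 15. It was in 14.4% of all promoters and 17.9% of those of genes tested. Among the other lists it was in 3 of 17 epithelial and 7 of 16 endothelial large falls. Of the crest mesenchyme genes called higher 10 of 21 had it, a larger share than in the erythroid large falls. These are letter matches and not measured binding. The 250 bases before the start of 3 of these genes follow, in the direction of the gene, with GATA matches in capitals, for Hbb-y at chr7:103853208-103853457 on the minus strand, Hba-x at chr11:32276350-32276599 on the plus strand and Epb42 at chr2:121036878-121037127 on the minus strand.
Hbb-y: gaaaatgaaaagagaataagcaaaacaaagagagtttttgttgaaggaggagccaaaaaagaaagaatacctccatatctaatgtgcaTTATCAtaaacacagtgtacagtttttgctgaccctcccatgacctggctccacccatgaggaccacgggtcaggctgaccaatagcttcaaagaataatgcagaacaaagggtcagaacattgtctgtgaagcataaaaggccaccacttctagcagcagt
Hba-x: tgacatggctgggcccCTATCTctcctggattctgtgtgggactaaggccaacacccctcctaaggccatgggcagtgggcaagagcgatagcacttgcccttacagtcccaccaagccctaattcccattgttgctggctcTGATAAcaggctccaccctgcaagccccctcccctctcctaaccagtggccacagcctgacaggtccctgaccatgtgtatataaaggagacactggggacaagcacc
Epb42: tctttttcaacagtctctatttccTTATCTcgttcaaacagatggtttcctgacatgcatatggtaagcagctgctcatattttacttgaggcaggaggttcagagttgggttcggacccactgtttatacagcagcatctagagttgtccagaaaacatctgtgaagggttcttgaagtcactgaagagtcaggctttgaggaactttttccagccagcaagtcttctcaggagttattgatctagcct
Hbb-y and Epb42 have 1 match each and Hba-x has 2.

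**Figure D2:**
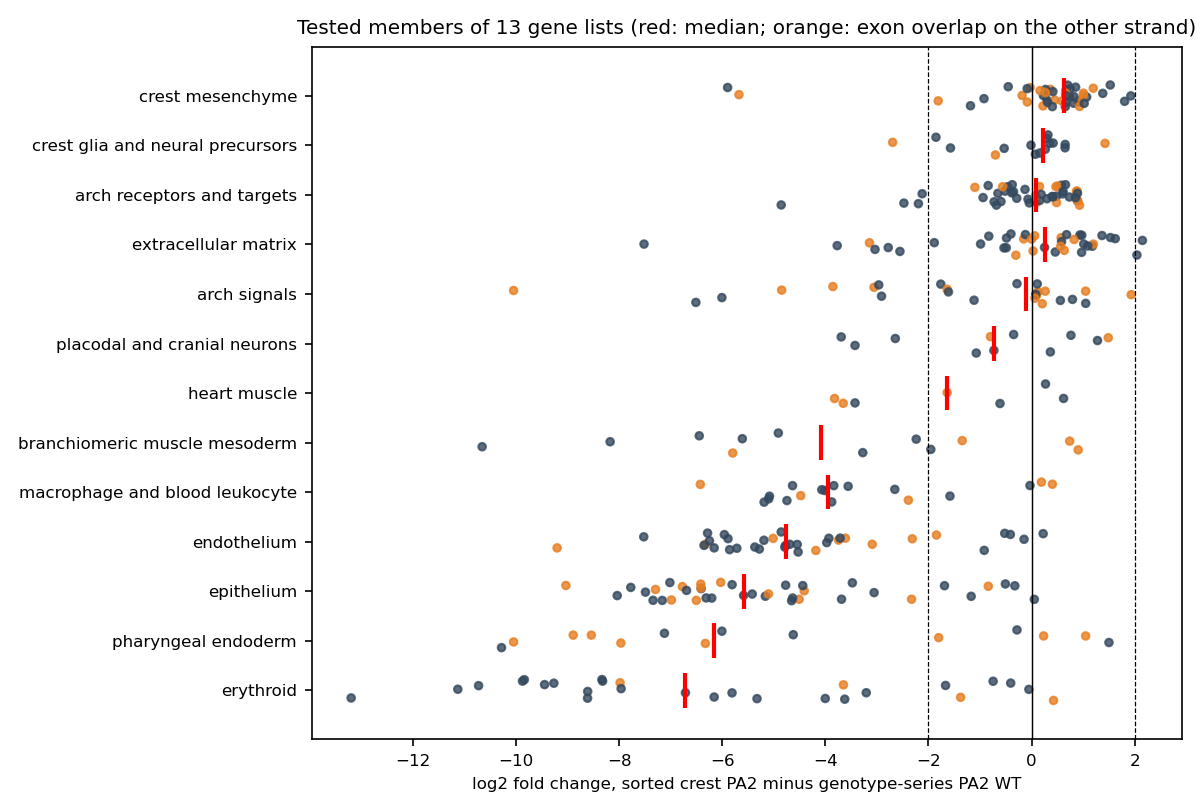
Log2 fold change (sorted crest minus PA2 WT, x axis) of the tested members of 13 gene lists (rows), one point per gene, orange for overlapped genes, with the list median as a red bar and dashed lines at -2 and 2. Erythroid, endoderm, epithelium, endothelium, macrophage and muscle mesoderm lists have medians between -6.71 and -3.94, while the crest mesenchyme list has a median of 0.62.

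White blood cell genes showed the same direction at lower levels. Of 30 macrophage and leukocyte genes 18 were tested, and 14 of these were large falls with a list median of -3.94. The number of large falls in the list was 9 without PA2 WT replicate 3. Csf1r, the receptor on which macrophages depend (overlapped), had 0.200, 0.240 and 0.0662 CPM in sorted crest and 13.6, 14.8 and 16.8 CPM in PA2 WT. Mrc1, a scavenger receptor of fetal macrophages, had 0.234, 0.274 and 0.0993 CPM against 6.56, 7.10 and 7.64 CPM. Both stood apart without overlap between groups. Clec1b, a receptor of platelets and their precursors, had 0 counts in sorted crest and 3.88 to 4.51 CPM in PA2 WT and is near empty.

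The endothelium, which lines the arch artery and is not made by crest, was depleted as a group. Of 39 endothelial genes 35 were tested, 32 fell and 29 were large falls, with a median log2 fold change of -4.77, and without overlapped genes 21 of 26 were large falls. Kdr, the main receptor for VEGF in vessels (chr5:75932827-75978458), had 3.14, 3.66 and 3.01 CPM in sorted crest and 96.1, 95.7 and 97.8 CPM in PA2 WT. Its log2 fold change of -4.86 ± 0.08 (adjusted p by edgeR 2.58e-10) left no library between the groups.

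Adhesion molecules of vessels behaved alike. Cdh5, VE-cadherin, had 0.334, 1.13 and 1.29 CPM against 53.6, 57.8 and 55.4 CPM, a log2 fold change of -5.89 ± 0.24. Pecam1 had 2.54, 3.01 and 3.14 CPM against 42.9, 50.8 and 45.5 CPM, a log2 fold change of -3.97 ± 0.11. The receptors Flt1, Tie1 and Tek fell by 6.28, 6.35 and 4.79, and the transcription factors Sox7, Sox18 and Lmo2 by 6.25, 4.54 and 4.69. A few members of the list moved little. Ramp2, part of the adrenomedullin receptor, fell by 0.92, and Fli1, an ETS factor that crest mesenchyme also uses, was higher in sorted crest by 0.23, with 193, 171 and 168 CPM against 160, 149 and 154 CPM. Fli1 no longer passed the test when PA2 WT replicate 2 or replicate 3 was left out.

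**Figure D3:**
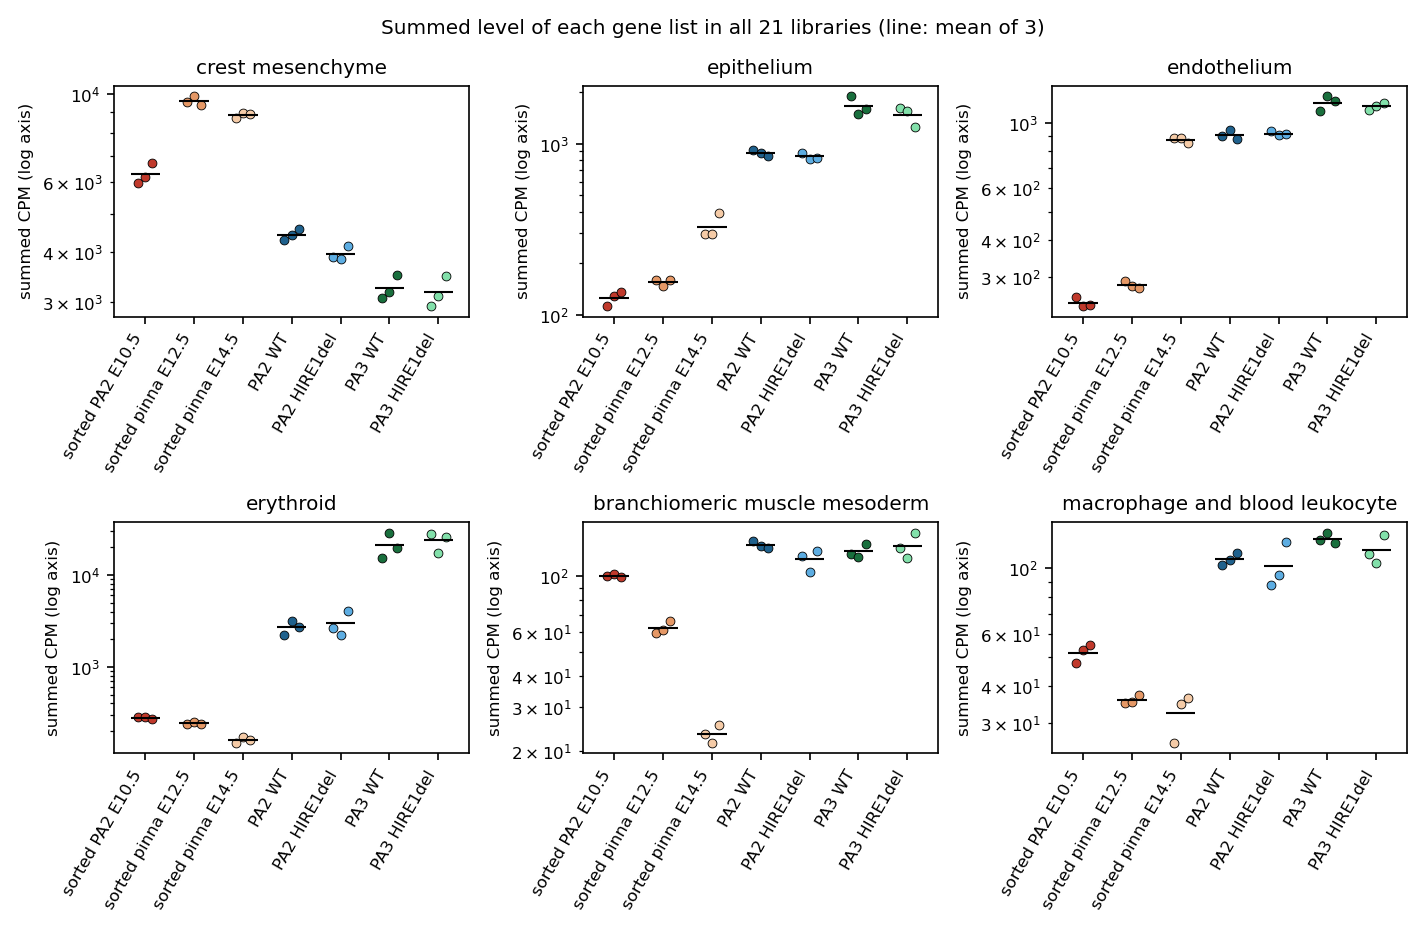
Summed CPM of 6 gene lists (y axes, logarithmic) in all 21 libraries, grouped on the x axis by series, tissue and genotype, with 1 point per library and a line at the mean of 3. Sorted PA2 lies below PA2 WT for epithelium, endothelium, erythroid genes and macrophages and above it for crest mesenchyme.

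The summed level of each list in the libraries outside the comparison showed how far the contrast reached. Erythroid genes summed to 272 to 286 CPM in sorted PA2 and 2202 to 3184 CPM in PA2 WT, and the range in PA2 HIRE1del was 2225 to 4091 CPM. Epithelial genes summed to 112 to 136 CPM in sorted PA2, 846 to 921 in PA2 WT and 819 to 881 in PA2 HIRE1del. Endothelial genes summed to 239 to 256 CPM in sorted PA2, 275 to 290 in the sorted pinna of E12.5 and 883 to 946 in PA2 WT. At E14.5 the sorted pinna reached 851 to 886 CPM for endothelium, near the level of PA2 WT. For erythroid and epithelial genes the 9 sorted libraries all lay below the 12 others.

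Epithelial genes fell almost without exception. The list holds genes of cell junctions, keratins and the factors that keep epithelial identity, and 38 of its 39 tested members (of 43) fell, 33 of them by a large change, with a median of -5.58. Without overlapped genes 21 of 26 were large falls. The remaining member, the signal gene Wnt10a, had 0.701, 1.33 and 0.629 CPM in sorted crest and 0.656, 1.31 and 0.652 CPM in PA2 WT.

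Junction genes gave wide gaps. Cdh1, E-cadherin, had 0.200, 0.342 and 0.298 CPM in sorted crest and 46.2, 45.8 and 48.7 CPM in PA2 WT, a log2 fold change of -7.34 ± 0.14 (adjusted p by edgeR 3.14e-10). Cldn6, a tight junction claudin, had 0.401, 0.240 and 0.165 CPM against 44.1, 37.9 and 37.5 CPM, and Cldn4 fell by 8.04 on the log2 scale. Epcam, a surface marker of epithelia, kept more, with 3.57, 4.38 and 3.90 CPM against 58.0, 48.8 and 48.8 CPM, a log2 fold change of -3.68 ± 0.11. In none of these genes did the groups overlap. Prom2, a prominin of epithelial cells, had 0 counts in sorted crest and 5.94, 4.66 and 5.37 CPM in PA2 WT, at least 52.9-fold lower. Cdh3, P-cadherin, was lower by a smaller amount, with 26.3, 29.6 and 30.6 CPM against 103, 92.6 and 88.4 CPM.

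The regulators of epithelial identity fell with them. Trp63, the p63 factor of stratifying ectoderm, had 0.267, 0.308 and 0.265 CPM against 40.1, 35.4 and 36.7 CPM, a log2 fold change of -7.01 ± 0.14. Grhl2 (overlapped) and Grhl3 fell by 6.03 and 5.16, and the splicing regulators Esrp1 and Esrp2 (both overlapped) by 4.51 and 6.50. Keratins fell by different amounts, from 3.05 for Krt18 to 6.98 for Krt8 (overlapped). Jup, plakoglobin, which junctions outside epithelia also use, fell by 0.51.

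Several matrix genes of the epithelial basement membrane, picked out after their values were seen, were lower as well. Lama5, a laminin chain, had 17.2, 19.7 and 18.7 CPM in sorted crest and 154, 167 and 145 CPM in PA2 WT, a log2 fold change of -3.04 ± 0.08, and Frem2, which anchors epithelium to the tissue below, had 35.9, 37.9 and 24.7 CPM against 201, 198 and 189 CPM. In both the highest sorted library was below the lowest PA2 WT library. Further large falls of the matrix list were Lamb3, Lama3 (overlapped) and Col17a1, which also belong to the epithelial basement membrane.

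The pharyngeal endoderm list was harder to read. Of 20 members 14 were tested and 9 were large falls, with a median of -6.17, but 8 of the 14 are overlapped and 6 are near empty. Without overlap 4 of 6 were large falls, and leaving out near-empty genes as well left 1, Foxa2, a pioneer factor of endoderm, with 0, 0.171 and 0.0331 CPM in sorted crest and 1.62, 1.91 and 1.83 CPM in PA2 WT. Nkx2-3 (near empty), a homeobox gene of pharyngeal endoderm, had 0 counts in sorted crest and 6.36, 5.15 and 4.56 CPM in PA2 WT. Pax1 (overlapped), a pouch marker, had 1 count in the sorted libraries and 7.06, 5.65 and 4.84 CPM in PA2 WT. Tbx2, which arch mesenchyme also expresses, was higher in sorted crest, with 107, 118 and 142 CPM against 44.8, 47.5 and 39.7 CPM, and with it the summed level of the list was 140 to 180 CPM in sorted crest and 106 to 120 CPM in PA2 WT.

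The mesodermal core of the arch was represented by the regulators of branchiomeric muscle, the muscle of face and jaw. Of 24 genes 12 were tested, 10 fell and 8 were large falls, with a median of -4.09, and 7 of 8 without overlap were large falls. Myf5, the first myogenic regulator (chr10:107482908-107486134), had 0 counts in the 3 sorted libraries and 7.25, 6.35 and 7.23 CPM in PA2 WT, at least 69.0-fold lower. Tcf21, a bHLH factor of muscle precursors, had 0.100, 0.171 and 0.132 CPM against 12.9, 12.6 and 11.4 CPM. The groups did not overlap in either gene. Tbx1, needed for the arch mesoderm and endoderm, had 0 counts against 1.39, 1.48 and 0.869 CPM, and Msc (overlapped) and Lhx2 fell by 5.80 and 5.61.

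Both genes of the list that rose, Cap2 and Ebf2, are overlapped. Ebf2 was higher in sorted crest, with 75.0, 79.0 and 76.1 CPM against 45.5, 40.9 and 38.9 CPM, within a summed level of the list of 99.1 to 102 CPM in sorted crest and 130 to 139 CPM in PA2 WT. Isl1, which marks heart and muscle progenitors of the arch core and also neurons and ectoderm, had 7.25, 3.87 and 2.81 CPM in sorted crest and 51.2, 50.6 and 50.6 CPM in PA2 WT, a log2 fold change of -3.42 ± 0.24. Of 18 heart muscle genes, Isl1 among them, 7 were tested and 3 were large falls, 1 of 4 without overlap.

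Signals and receptors gave a split picture. Of 28 signal genes of the arch 26 were tested, and 12 fell (against 31.6% of all genes tested). Large falls were 8 (30.8%, against 9.82%). Signal genes that rose were 7 (26.9%, against 27.7%), none by a large change. Overlap on the opposite strand affects 13 of the 26, and without overlap 4 of 13 were large falls (against 7.75% of all genes without overlap). Of 45 receptors and targets all were tested, 21 rose (46.7%, against 27.7% of all genes tested) and 17 fell (against 31.6%). Their median was 0.09, and 4 were large falls (8.89%, against 9.82% of all genes tested). Without overlapped genes 14 of 33 rose (against 28.8% of all genes without overlap) and 15 fell (against 28.7%), and the median was -0.13.

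The hedgehog pathway was split between ligand and receptor. Shh, secreted by pharyngeal endoderm (overlapped and near empty), had 0 counts in the 3 sorted libraries and 3.59, 5.54 and 4.50 CPM in PA2 WT. Ptch1, the receptor and a target of the pathway, had 314, 302 and 328 CPM in sorted crest and 189, 220 and 200.1 CPM in PA2 WT, a log2 fold change of 0.66 ± 0.07. The co-receptors Boc and Cdon rose by 0.89 and 0.73, and the transcription factors Gli1 (overlapped), Gli2 and Gli3 (overlapped) by 0.50, 0.89 and 0.48. For all of these the sorted libraries lay above PA2 WT.

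The platelet-derived growth factor genes Pdgfa and Pdgfb behaved in the same way. Pdgfa (overlapped), made by arch epithelium, had 3.94, 5.06 and 4.10 CPM in sorted crest and 75.3, 60.5 and 57.4 CPM in PA2 WT. Pdgfb, made by endothelium, had 0.0334, 0.103 and 0.132 CPM against 7.87, 9.36 and 8.88 CPM, a log2 fold change of -6.51 ± 0.29. Their receptors were higher in sorted crest, Pdgfra (overlapped) with 893, 1030.2 and 1110.4 CPM against 476, 552 and 593 CPM, and Pdgfrb with 309, 345 and 359 CPM against 177, 202 and 192 CPM. These ligands and these receptors thus moved in opposite directions, with no overlap of the groups in any of the 4. Pdgfc, also a ligand of the signal list, is not reported here.

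Further ligands of epithelium followed. Edn1 (overlapped), which patterns the lower part of the arch, had 0, 0.171 and 0.0662 CPM against 2.89, 2.72 and 1.68 CPM, and its receptor Ednra (overlapped) had 57.2, 69.9 and 76.8 CPM against 33.3, 35.6 and 42.6 CPM. Fgf8 (near empty) had 4 counts in the sorted libraries and 4.09, 3.11 and 2.45 CPM in PA2 WT, while Fgfr1 (overlapped) rose by 0.89. Jag2 and Dll1 (overlapped), ligands of Notch, fell by 2.96 and 3.05, and Notch2 rose by 0.60. The targets of FGF signalling Dusp6, Etv5 and Spry1 (overlapped) fell by 0.37, 0.46 and 0.56, opposite in direction to Fgfr1.

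**Figure D4:**
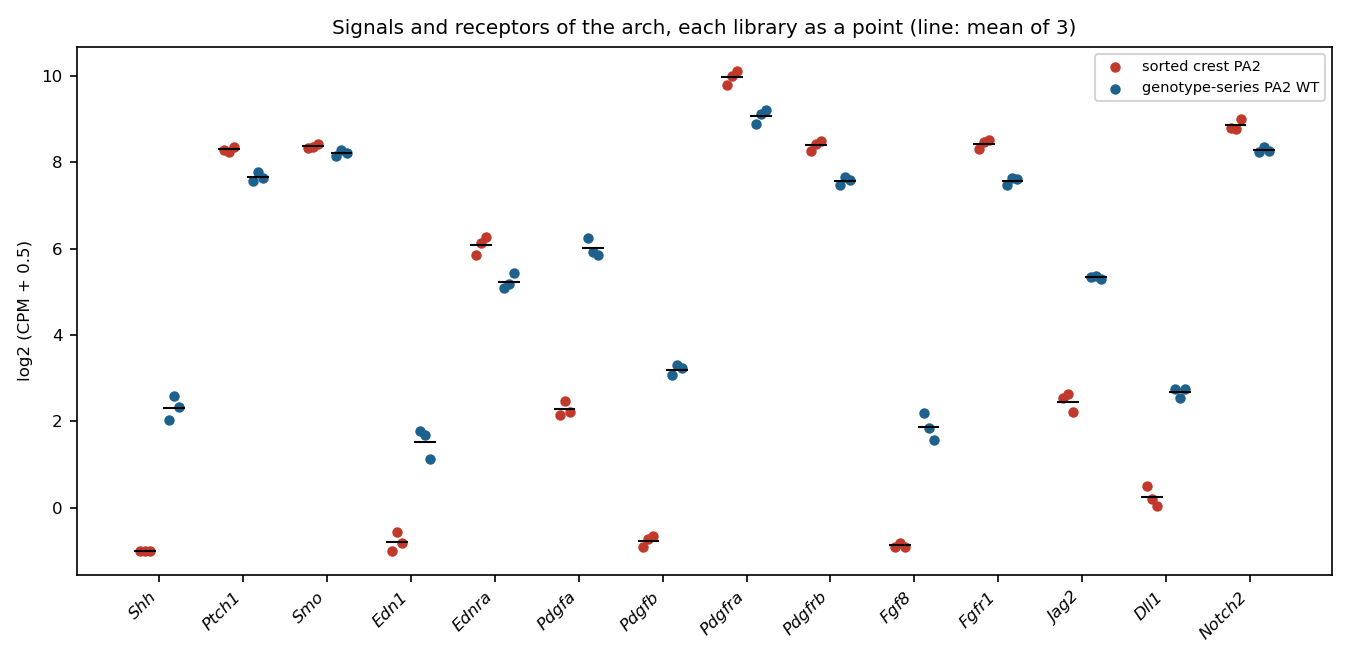
Log2 of CPM with 0.5 added (y axis) of 14 signal and receptor genes (x axis) in the 3 sorted crest (red) and 3 PA2 WT (blue) libraries, with lines at the means. The ligands Shh, Edn1, Pdgfa, Pdgfb, Fgf8, Jag2 and Dll1 lie lower in sorted crest, and Ptch1, Ednra, Pdgfra, Pdgfrb, Fgfr1 and Notch2 lie higher.

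Signals that rose in sorted crest include some of mesenchyme itself. Cxcl12, a chemokine of mesenchyme, had 426, 434 and 456 CPM in sorted crest and 256, 254 and 263 CPM in PA2 WT, a log2 fold change of 0.79 ± 0.05, whereas its receptor Cxcr4 fell by 2.19, with 4.74, 3.35 and 2.78 CPM against 18.3, 13.8 and 18.6 CPM. Bmp2 and Wnt11 (overlapped) rose by 1.05 and 1.93. Plxnd1, a semaphorin receptor of vessels, had 24.0, 21.6 and 24.6 CPM against 120, 146 and 131 CPM.

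Genes of crest mesenchyme were mostly higher in sorted crest, by modest amounts. The list holds mainly transcription factors, with the receptors Pdgfra and Ednra, the cadherin Cdh11 and the matrix gene Fbn2. All 46 genes of the list were tested, 33 rose (71.7% of them, against 27.7% of all genes tested) and 5 fell, with a median log2 fold change of 0.62 and no large rise. Without overlapped genes 22 of 29 rose and 3 fell. Their summed level was 5973 to 6698 CPM in sorted crest and 4282 to 4577 CPM in PA2 WT, a mean 142% of that in PA2 WT.

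Arch identity genes were among them. Hoxa2, the selector of PA2 identity, had 121, 125 and 130 CPM in sorted crest and 73.1, 77.7 and 84.9 CPM in PA2 WT, a log2 fold change of 0.70 ± 0.06 (adjusted p by edgeR 9.84e-06). Dlx5, a factor of the lower arch, had 45.3, 54.6 and 57.9 CPM against 30.2, 33.0 and 33.2 CPM, and Hand2 (overlapped), a target of endothelin signalling, rose by 1.01. The sorted libraries lay above all PA2 WT libraries in each. Dlx3 and Dlx2 rose by 0.75 and 0.66.

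General mesenchyme genes were higher as well. Twist1 had 202, 209 and 218 CPM in sorted crest against 129, 134 and 140 CPM, a log2 fold change of 0.67 ± 0.05. Prrx1 rose by 0.42, Cdh11, a mesenchymal cadherin, by 0.30 and Meis2, a HOX cofactor, by 0.23. Sox9, the regulator of cartilage, had 76.9, 76.7 and 80.7 CPM against 38.4, 38.4 and 40.7 CPM. The largest differences of the list were in factors with a restricted domain in the arch, Osr1 with 1.93 ± 0.35, Osr2 with 1.81 ± 0.33, Gsc with 1.53 ± 0.22 and Lhx8 with 1.38 ± 0.11. Osr1 ranged from 17.9 to 38.8 CPM among the sorted libraries and from 3.82 to 10.9 CPM in PA2 WT, so that the spread within each group was wide but the groups stayed apart.

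A few genes of the crest mesenchyme list went the other way. Tfap2b had 0.301, 0.479 and 0.265 CPM in sorted crest and 21.3, 20.1 and 22.5 CPM in PA2 WT, a log2 fold change of -5.89 ± 0.18. The related Tfap2a (overlapped) had 2.81, 2.22 and 1.42 CPM against 8.21, 8.08 and 6.80 CPM. Both encode AP-2 factors, which surface ectoderm expresses as well as crest. Foxl2 (overlapped) had 0.0334, 0 and 0.165 CPM against 4.16, 3.78 and 3.20 CPM. Mef2c, shared with endothelium and muscle, fell by 1.18, and Six2 by 0.92. Why these genes of the list were lower was not tested.

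Matrix genes went both ways. Of 39 matrix genes 19 rose (48.7%, against 27.7% of all genes tested) and 13 fell (against 31.6%), with a median of 0.25. There were 2 large rises and 6 large falls (15.4%, against 9.82% of all genes tested). Without overlapped genes 15 of 28 rose and 11 fell, with a median of 0.36. Among those higher in sorted crest, Col1a1, the main chain of type I collagen, had 189, 214 and 297 CPM against 64.4, 82.3 and 84.8 CPM, a log2 fold change of 1.62 ± 0.16. Col3a1, type III collagen, had 2118, 2204 and 2432 CPM against 1088, 1286 and 1220 CPM. Both groups of libraries were apart for these genes, and sorted replicate 3 was the highest. Col6a3 was a large rise, with 85.3, 116 and 176 CPM against 19.1, 37.5 and 36.5 CPM, and Acan, the cartilage proteoglycan aggrecan, was the other at a low level, with 1.24, 1.98 and 3.04 CPM against 0.463, 0.635 and 0.342 CPM. Col18a1 and Sparc fell by 0.99 and 0.83, and Hspg2, perlecan, by 0.49, all of them matrix that vessels and epithelia share. The cause of these falls was not tested.

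Crest derivatives of the nerves did not move as a group. Of 22 genes of crest glia and pigment cells 16 were tested, and the median was 0.22. Of these 4 rose (25%, against 27.7% of all genes tested) and 4 fell (against 31.6%). Without PA2 WT replicate 3 or sorted replicate 2 only 2 rose. Sox10, the factor of glial and pigment precursors, had 6.88, 4.52 and 4.37 CPM in sorted crest and 3.01, 4.84 and 4.13 CPM in PA2 WT, and the groups overlapped. Erbb3, the neuregulin receptor of glia, which arch epithelium also expresses, had 10.8, 10.47 and 9.89 CPM against 36.1, 37.7 and 40.7 CPM. Of 26 neuronal genes 11 were tested, 3 rose (27.3%, against 27.7% of all genes tested) and 6 fell (against 31.6%). Sox2, a factor of neural, placodal and endodermal progenitors, had 1.503, 0.992 and 0.563 CPM against 15.3, 14.1 and 11.1 CPM, while the axonal gene Nefl (overlapped) had 7.98, 12.49 and 22.7 CPM against 6.40, 5.12 and 4.22 CPM.

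Large rises were few and mostly at low levels. The largest without overlap was Tafa3 (chr3:104767406-104781840), which encodes a small secreted protein, with 25.4, 25.9 and 28.1 CPM in sorted crest and 1.20, 0.741 and 1.33 CPM in PA2 WT, a log2 fold change of 4.62 ± 0.17 (adjusted p by edgeR 1.34e-08). Its 3 sorted libraries were nearly equal and far above PA2 WT. Foxl1, a forkhead gene of mesenchyme, had 7.51, 9.10 and 9.27 CPM against 0.810, 2.40 and 2.05 CPM. The agouti gene a, an antagonist of melanocortin signalling in pigment control, had 4.84, 6.12 and 5.72 CPM against 0.656, 0.847 and 0.559 CPM.

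Retinoic acid metabolism was represented on both sides. Aldh1a2, which makes retinoic acid, had 8.82, 15.1 and 22.1 CPM in sorted crest and 1.39, 2.65 and 2.11 CPM in PA2 WT, a log2 fold change of 2.92 ± 0.34. Cyp26b1, which degrades it, had 25.4, 42.3 and 56.8 CPM against 6.09, 11.1 and 10.1 CPM, a log2 fold change of 2.21 ± 0.29. In both the libraries of the 2 groups did not overlap and sorted replicate 3 was the highest. Transcription factors among the rises were Glis1, with 3.57, 10.47 and 12.1 CPM against 0.193, 1.342 and 0.714 CPM, Hic1, with 4.98, 8.93 and 19.0 CPM against 0.733, 2.44 and 1.118 CPM, Dmrt2, with 6.18, 13.48 and 15.95 CPM against 0.964, 3.92 and 2.95 CPM, and Sim2, which rose by 2.07 on the log2 scale.

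Others of the 15 largest rises without overlap were low. Tmem132d, a membrane protein gene, had 2.94, 3.42 and 4.30 CPM against 0.656, 1.13 and 0.807 CPM, and Ube2ql1, which encodes a protein like ubiquitin-conjugating enzymes, had 1.80, 4.24 and 4.47 CPM against 0.771, 0.883 and 0.683 CPM. AI606473, a transcript annotated as processed and not as coding, had 4.14, 7.19 and 11.05 CPM against 0.925, 1.69 and 1.18 CPM. None of them overlapped between groups.

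One library pattern ran through these rises. Sorted replicate 3 was the highest of the sorted libraries in 26 of the 32 (38.7% of all genes tested), sorted replicate 1 was the lowest in 28 (42.0% of all genes tested), and PA2 WT replicate 1 was the lowest of its group in 21 (37.4% of all genes tested). All 14 genes that were large rises without sorted replicate 3 were also among the 32. Rprl2 and Aldoart1, which rose by 3.36 and 2.25, resemble other genes closely in sequence (an RNA component of RNase P and the aldolase Aldoa), and their counts are uncertain.

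**Figure D5:**
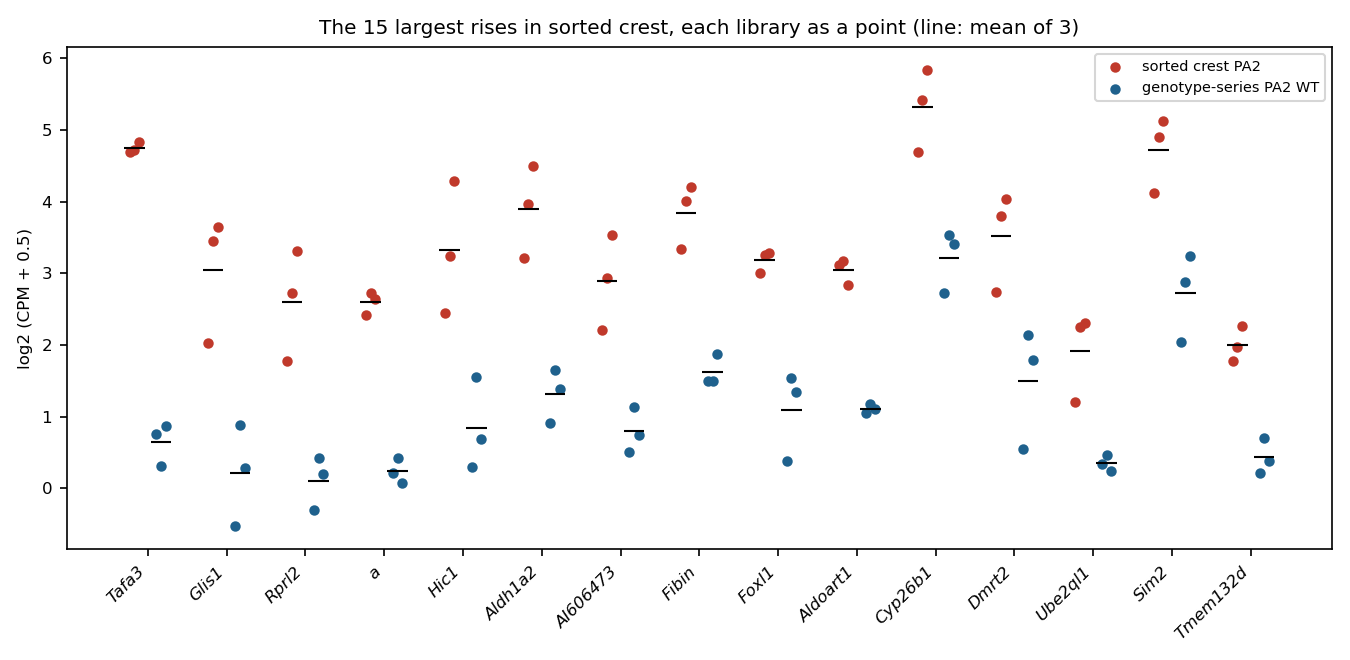
Log2 of CPM with 0.5 added (y axis) of the 15 largest rises without overlap (x axis) in the 3 sorted crest (red) and 3 PA2 WT (blue) libraries, with lines at the means. The sorted libraries of Tafa3 lie close together at 25.4 to 28.1 CPM, whereas those of Hic1 range from 4.98 to 19.0 CPM.

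The sorted pinna libraries, which the comparison did not use, gave the later course of these genes. Of the 32 rises 9 had all 6 pinna libraries above the 3 sorted PA2 libraries, as did 28.1% of all genes tested. In 4 all 6 lay below, a pattern for which no share over all genes was computed. Among the 26 rises without overlap 7 had all 6 above and 1 had all 6 below. Fibin, a secreted protein gene, rose on average from 14.3 CPM in sorted PA2 to 482 CPM in the pinna of E12.5 and 511 CPM at E14.5, and Col6a3 from 126 to 1395 and 5867 CPM. Aldh1a2 had 39.2 ± 7.85 CPM at E12.5 and 0.789 ± 0.564 CPM at E14.5 (SD, n = 3), whereas Cyp26b1 had 399.9 ± 23.8 and 337 ± 7.46 CPM. Foxl1 was at 0.207 and 0.0136 CPM in the pinna. These values are descriptions, since stage, tissue and, at E14.5, the enzyme of dissociation differ as well.

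Genes of cell stress and handling were mostly lower in sorted crest or did not pass the test. Of 28 immediate early genes 25 were tested, 15 fell and 2 rose, where 31.6% of all genes tested fell and 27.7% rose. Without overlapped genes 12 of 18 fell and 0 rose. Fos had 11.6, 5.61 and 8.44 CPM in sorted crest and 30.0, 27.6 and 28.8 CPM in PA2 WT, while Jun (overlapped) had 133, 135 and 175 CPM against 93.7, 107 and 117 CPM. Of 15 heat shock genes 12 were tested and 7 fell, where 31.6% of all genes tested did, but without overlapped genes 4 of 9 fell and the median was -0.01 in place of -0.92. Hspa8 had 539, 494 and 578 CPM against 1216, 1714 and 1308 CPM. Of 31 hypoxia and glycolysis genes 30 were tested, 19 fell (against 31.6% of all genes tested) and 3 rose (against 27.7%). Without overlapped genes 9 of 18 fell and 1 rose, with a median of -0.28 in place of -0.45. The glucose transporter gene Slc2a3 fell by 3.12.

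A broad set of highly expressed genes was lower too. Of 88 cytosolic ribosomal protein genes 83 were tested and 69 fell, with a median of -0.78, and their summed level was 16206 to 17221 CPM in sorted crest and 24033 to 26193 CPM in PA2 WT. These genes have many processed copies in the genome, so their counts are uncertain. Of 15 widely expressed genes 10 fell and 1 rose. Eef1a1 had 3190, 2990.3 and 2869 CPM against 7115, 7077 and 6689 CPM. Ppia had 15.9, 14.2 and 49.3 CPM against 247, 231 and 231 CPM, with a wide spread among the sorted libraries. Whether copies elsewhere in the genome took reads of Eef1a1 and Ppia was not tested, so their counts are uncertain too. Leaving out sorted replicate 3 left 1 large fall in this list in place of 2. Without overlapped genes 7 of 12 widely expressed genes fell and 1 rose, with a median of -0.38 in place of -0.59. Of all genes tested 31.6% fell. These falls in genes that all cells use stand beside the small rises of the crest mesenchyme list, and their relation was not tested. Replication-dependent histone genes went both ways, with 2 large rises, both overlapped, and 8 large falls among 55 tested, in a family of near-identical copies.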

How the data were processed

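RNA-seq libraries were made with an unstranded kit from total RNA of dissected mouse tissue. The authors aligned the reads to mm10 with QuasR and HISAT2 and counted alignments over UCSC known gene exons with the orientation set to opposite, and deposited raw counts per gene with no normalization. The submitters' processing notes name bcl2fastq 2.17 and 2.20. Here the 2 count tables were joined by Entrez identifier, with 0 value columns unused. CPM values are counts scaled to 1000000 per library. Log2 fold changes come from R 4.3.3 and edgeR 4.0.16, with TMM scaling (factors 0.986 to 1.01), 1 mean per group over the 6 libraries and the two-sided quasi-likelihood test, with p-values adjusted by Benjamini and Hochberg over all 13609 genes tested. Genes needed 1 CPM in at least 2 libraries. The standard error is the fold change divided by the square root of the test statistic. Positions and overlap on the opposite strand come from GENCODE M21, which placed 24518 of the 24594 genes. Counts of replicates differed by a chi-square of 8.18 to 15.7 per degree of freedom, so no library was a copy of another.

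Genes named are those of the gene lists, and the 15 largest rises and 15 largest falls with average log2 CPM from 1 upward, groups apart and no overlap. Other genes were chosen after their values were seen, and some genes are not reported here. The comparison, the lists and the members were chosen with earlier results of these data known. A group with no counts was set against a floor of 3 counts per library, and ratios with at most 3 counts per library carry a 95% exact interval for counting error only. The fit was tested on simulated data for this comparison with 13264 genes, where 100% of 100 genes with a true log2 fold change of 3 were called large, and 16 unchanged genes were called, 0 of them large. Changed genes were few, as many up as down, and none had a low average level. The simulation therefore does not show how the fit does for genes near 0 or for changes this wide and lopsided. Alternatives were other scalings, filters, tests (limma-voom 3.58.1, DESeq2 1.42.0) and thresholds, leaving out overlapped or near-empty genes, all 21 libraries in one fit, a replicate block, and leaving out each library. Sequencing depth limits values under about 0.1 CPM.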

Additional observations from a re-analysis of the deposited data

Results flagged for a closer look

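The erythroid and the hepatic lists had their highest levels in libraries that the comparison did not use. Erythroid genes summed to 28748 CPM in the highest PA3 WT library, against 2202 to 3184 CPM in PA2 WT and 272 to 286 CPM in sorted PA2. Genes of liver and yolk sac summed to 625 CPM in the highest PA3 WT library, against means of 22.4 CPM in PA2 WT and 23.9 CPM in sorted PA2. Both values are from libraries with no sorting stated, and their source was not tested.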

How the results depend on the processing

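The count of 32 large rises and 1337 large falls moved with the filter on low counts and with the size threshold. With no filter beyond 1 count it was 79 and 2375, and with 1 CPM in every library 7 and 197, which drops genes that are low in one group by construction. With the size of a large change set to 1 on the log2 scale it was 272 and 2084, and with 3 it left 7 rises, and edgeR's test against a log2 fold change of 1 gave 87 rises. Leaving out overlapped genes left 707 large falls and 5139 genes called at any size, and leaving out near-empty genes as well, an alternative added after seeing the data, left 638 and 5064. Leaving out 1 library at a time gave 14 to 43 rises, 1246 to 1350 large falls and 6834 to 8111 genes called. For these counts all other alternatives stayed within 1.5 times. Of 1311 counts of list members under the alternatives 130 moved by more, 60 with overlapped genes left out, 42 with another filter on low counts, 20 with 1 library left out and 8 otherwise. DESeq2 gave 32 rises and 1326 falls, limma-voom 31 and 1353, and the fit of all 21 libraries 32 and 1327. Replicate numbers are shared by label only. Deviations of same-numbered libraries correlated at 0.196, 0.0628 and 0.112 over 12248 genes, and sorted replicate 3 correlated best with PA2 WT replicate 2, so the numbers were not taken to pair the libraries. A replicate block gave 32 rises, 1342 falls and 8580 genes called. Of 2274 values of 147 named genes 2269 kept their direction and call. Fli1 lost its call without PA2 WT replicate 2 and without replicate 3, and Six2 in the fit of all 21 libraries. Wnt10a, not called in any fit, had a log2 fold change of -0.12 without PA2 WT replicate 1 and -0.15 without PA2 WT replicate 3, and up to 0.26 without sorted replicate 3, in place of 0.05. The cause of these shifts was not tested.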
